A study of Saccharomyces cerevisiae with 2 samples.

Results

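The protein genes of the mitochondrial genome of budding yeast (Saccharomyces cerevisiae) are COX1, COX2, COX3, COB, ATP6, ATP8, OLI1 and VAR1. They were found on the arrays as the probe sets annotated to a single gene whose symbol or synonym is one of these 8 names. All 8 of them, among 5656 genes with a probe set of their own, were found. They have 14 of the 6504 single-gene probe sets, on arrays of 9335 probe sets in all. COX1 had 3 of them, COB, ATP8, OLI1 and VAR1 had 2 each, and COX2, COX3 and ATP6 had 1 each. A further 6 probe sets are annotated to COX1 or COB together with reading frames of their introns, and these are given separately.

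The arrays measured total RNA of 2 replicates of a single group. The cells carried histone H3 in which lysines 4, 36 and 79 were replaced by arginine (H3 K4,36,79R). They had grown in galactose, where a wild-type H3 gene was also active, and were taken 12 h after a shift to glucose that repressed the wild-type gene. Cultures with wild-type H3 and other time points were not analysed here, so no difference between mutant and wild type is given and no test between groups was made.

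In budding yeast a small circular-mapping genome inside the mitochondrion encodes core subunits of the respiratory chain and ATP synthase, and nuclear genes encode their partner subunits. The mitochondrial genes are transcribed by the nuclear-encoded polymerase Rpo41, several of their RNAs are cut or spliced from longer precursors, and most are translated only with the help of activator proteins that act on a single mRNA. COX1 and COB hold group I and group II introns, some of which encode maturases or endonucleases in frame with the exon before them. Unlike nuclear mRNAs, mitochondrial mRNAs of this yeast carry no poly(A) tail. In glucose this yeast ferments, and respiration is kept low by glucose repression.

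Signal is the deposited MAS5 value, a linear brightness per probe set. Each probe set hybridises with its own strength, so single signals were placed within their array and not compared between genes as RNA levels. The percentile of a probe set is the percentage of single-gene probe sets with a lower signal, averaged over the 2 arrays. The median single-gene probe set read 39.8 on replicate 1 and 38.6 on replicate 2. Signal with no matching RNA was read from 9 probe sets for the opposite strand of E. coli control genes, whose highest values were 3.39 and 4.07 on replicates 1 and 2. Each ± is the SD of the 2 arrays (n = 2), whose number limits the precision.

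As a group the mitochondrial protein genes were dim, with a bright probe set for COX1 and for OLI1. Of the 14 probe sets, 12 lay below the median single-gene probe set on both arrays, where 3130 of all 6504 single-gene probe sets did. The median signal of the 14 was 8.63 ± 1.77 (SD, n = 2). The lowest read 0.0639 and 0.0617 and the highest 847 and 898 on replicates 1 and 2. At or below the opposite-strand controls on both arrays lay 5 of the 14, the 2 of ATP8, the 2 of VAR1 and 1 of OLI1, where 4.6% of all single-gene probe sets did. The RNA came from whole cultures, in which fewer cells with the mitochondrial genome and less mitochondrial RNA per cell cannot be told apart. The sources used here do not give the primer that copied the RNA, so the low signals are not read as low RNA levels against nuclear genes.

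**Figure D1:**
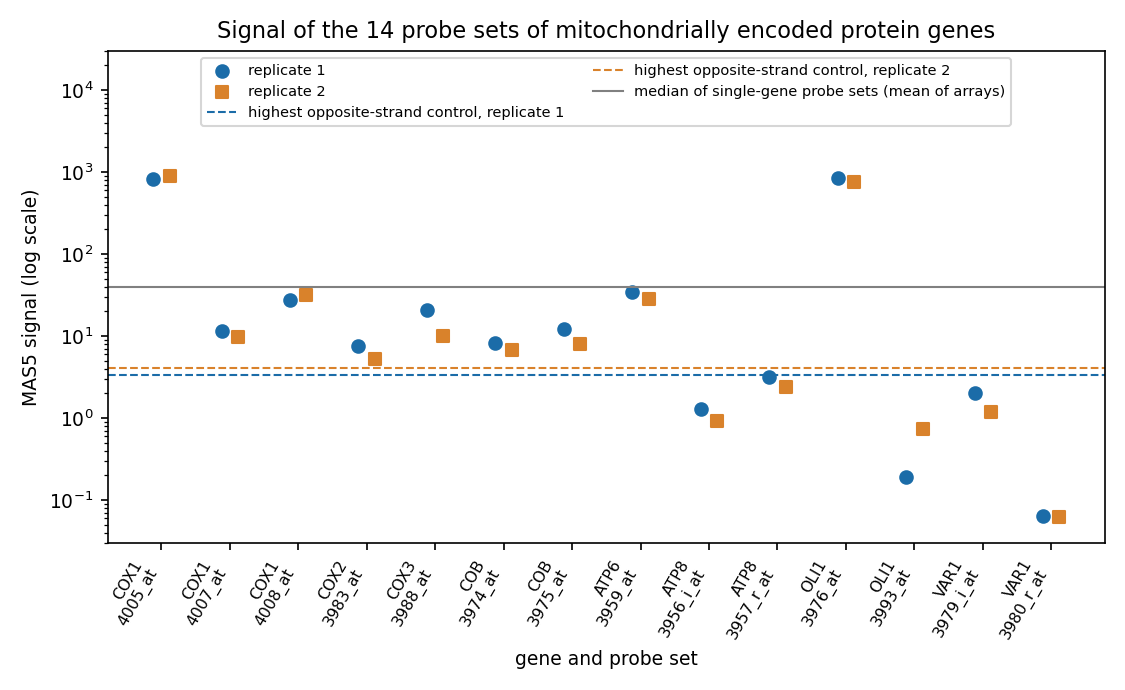
MAS5 signal (log scale) of the 14 single-gene probe sets of the mitochondrial protein genes on each array. Circles are replicate 1 and squares replicate 2, dashed lines the highest opposite-strand control of each array (3.39 and 4.07), and the grey line the median of single-gene probe sets. One COX1 and one OLI1 probe set lie far above the grey line, and 5 probe sets lie under the dashed lines.

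Cytochrome c oxidase, complex IV, passes electrons from cytochrome c to oxygen, and its 3 core subunits are mitochondrially encoded. COX1 encodes the subunit that holds the oxygen-reducing haem and copper centre. Its probe set 4005_at read 824 on replicate 1 and 898 on replicate 2 (861 ± 52.3, percentile 98.2). Its probe set 4007_at read 11.4 and 9.87 (10.7 ± 1.11, percentile 16), and 4008_at read 27.4 and 31.7 (29.5 ± 3.04, percentile 40.4). The 3 probe sets of COX1 therefore disagreed on both arrays by far more than the replicates did, with the brightest 80.8 times the dimmest.

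COX2 encodes the subunit that takes the electrons from cytochrome c. Its single probe set 3983_at read 7.61 and 5.31 (6.46 ± 1.63, percentile 9.31), above the opposite-strand controls on both arrays. COX3 encodes the remaining core subunit, which holds no metal centre. Its probe set 3988_at read 20.6 on replicate 1 and 10.1 on replicate 2 (15.4 ± 7.40, percentile 22.5). That is a 2.03-fold difference between the replicates, the largest among the 9 member probe sets that lay above the opposite-strand controls on both arrays.

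COB encodes cytochrome b, the mitochondrially made subunit of complex III. Its probe sets 3974_at, with 8.31 and 6.73 (7.52 ± 1.12, percentile 11.2), and 3975_at, with 12.1 and 8.02 (10.1 ± 2.87, percentile 14.9), lay close together. COB was the gene whose own probe sets disagreed least, 1.34-fold, and no COB probe set was bright.

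ATP synthase makes ATP from the proton gradient and takes 3 subunits from the mitochondrial genome. ATP6 encodes subunit a, which forms the path for protons beside the rotor. Its probe set 3959_at read 34.8 and 28.0 (31.4 ± 4.78, percentile 42.4), just under the median single-gene probe set. ATP8, which precedes ATP6 in the gene order and encodes a small membrane subunit, had the probe sets 3956_i_at, at 1.28 and 0.926 (1.10 ± 0.249, percentile 1.51), and 3957_r_at, at 3.20 and 2.41 (2.80 ± 0.558, percentile 4.0). Both arrays put both of them no higher than the opposite-strand controls, so against these controls they give no level for ATP8. Against the 4 mouse controls, which read at most 0.511 and 1.30, 3957_r_at lay above on both arrays and 3956_i_at on replicate 1.

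OLI1, also called ATP9, encodes subunit c, the protein of the rotor ring, and is named for oligomycin resistance. Its probe set 3976_at read 847 and 759 (803 ± 62.6, percentile 97.9). Its other probe set, 3993_at, read 0.192 and 0.741 (0.466 ± 0.388, percentile 0.707), within the range of the opposite-strand controls. OLI1 thus lay near the top or near the bottom of the array depending on the probe set.

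VAR1 encodes a protein of the small subunit of the mitochondrial ribosome and is the member that belongs to no respiratory complex. Its probe set 3979_i_at read 2.05 and 1.17 (1.61 ± 0.617, percentile 2.15). The other, 3980_r_at, read 0.0639 and 0.0617, a single step of the scale on which all values of each array lie. Neither exceeded the opposite-strand controls on either array.

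Disagreement within a gene is common on these arrays. Of the 5 member genes with over 1 probe set, the brightest read at least 10-fold the dimmest in 3 (COX1, OLI1 and VAR1), where 37.8% of the 315 genes with over 1 probe set did, and both VAR1 probe sets lay within background. A geometric mean (mean of log2 signals, returned to the linear scale) over the probe sets of COX1, 64.6 ± 1.29, or of OLI1, 18.2 ± 7.75, describes none of them. The design of a probe set was not the same across members. The ATP8 and VAR1 probe sets carry the suffixes i and r, which mark incomplete sets and sets chosen with relaxed rules, and the 10 others are plain. Of the 83 single-gene probe sets of suffix i, 14 lay at or below the opposite-strand controls on both arrays and 40 below the median single-gene probe set, with a median percentile of 66.9. Of the 15 of suffix r, 5 and 12 did, with a median percentile of 17.1. These counts include the ATP8 and VAR1 probe sets themselves, and the part of probe set design in their low readings was not tested. Among the 10 plain members the median percentile was 19.2, and 1 of the 10, OLI1 3993_at, lay at or below the opposite-strand controls.

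Further probe sets are annotated to the intron frames of COX1 and COB, alone or together with COX1 or COB itself. Where in these genes each probe set lies was not found here. On COX1, 6 probe sets carry its name, alone or with intron frames, and 6 are named for an intron frame only. The probe set shared by COX1 and the frames AI1 to AI5_ALPHA read 40.7 and 23.6, that shared with AI4 and AI5_ALPHA 371 and 355, and that shared with AI5_ALPHA alone 71.5 and 68.4. Of the 6 probe sets that carry the name of COX1, 2 were bright. These were the one shared with AI4 and AI5_ALPHA (percentile 93.2) and 4005_at (percentile 98.2). Of these 2, only 4005_at is annotated to COX1 alone, and the signal of the shared one cannot be assigned among its genes. The COX1 probe sets spanned 11.4 to 824 on replicate 1 and 9.87 to 898 on replicate 2. Those of the intron frames spanned 4.79 to 27.0 and 3.64 to 19.0, and the ranges overlapped.

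Among the COX1 intron frames, AI1 and AI2, which encode reverse transcriptase-like maturases, read 22.1 and 19.0, and 18.0 and 9.07. AI3, an endonuclease frame, read 11.0 and 8.02. AI4, whose protein can be a maturase, read 4.79 and 3.64, AI5_ALPHA read 27.0 and 17.8, and AI5_BETA 6.58 and 4.81. No intron frame of COX1 reached the median single-gene probe set on either array. AI4 on replicate 2 did not exceed the opposite-strand controls.

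On COB, the 5 probe sets that carry its name and the 4 of intron frames did not overlap in signal on either array. Those carrying the name spanned 8.31 to 34.2 on replicate 1 and 6.73 to 28.3 on replicate 2. Those of the frames BI2, BI3 and BI4 spanned 0.256 to 5.43 and 0.309 to 2.10. BI2 read 0.959 and 0.309 and BI3 0.256 and 0.555, and the BI4 maturase frame read 5.43 and 2.10 on one probe set and 0.767 and 0.370 on the other. On replicate 2 none of the 4 exceeded the opposite-strand controls, and on replicate 1 only the brighter BI4 probe set did. Of all single-gene probe sets, 4.6% lay at or below these controls on both arrays. The lack of overlap thus sets the COB readings against frame readings mostly within background. The brightest COB reading, 34.2 and 28.3, came from the probe set shared with BI2, BI3 and BI4. Each stretch has its own probe set, so these ranges compare probe sets, not amounts of spliced and unspliced RNA.

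**Figure D2:**
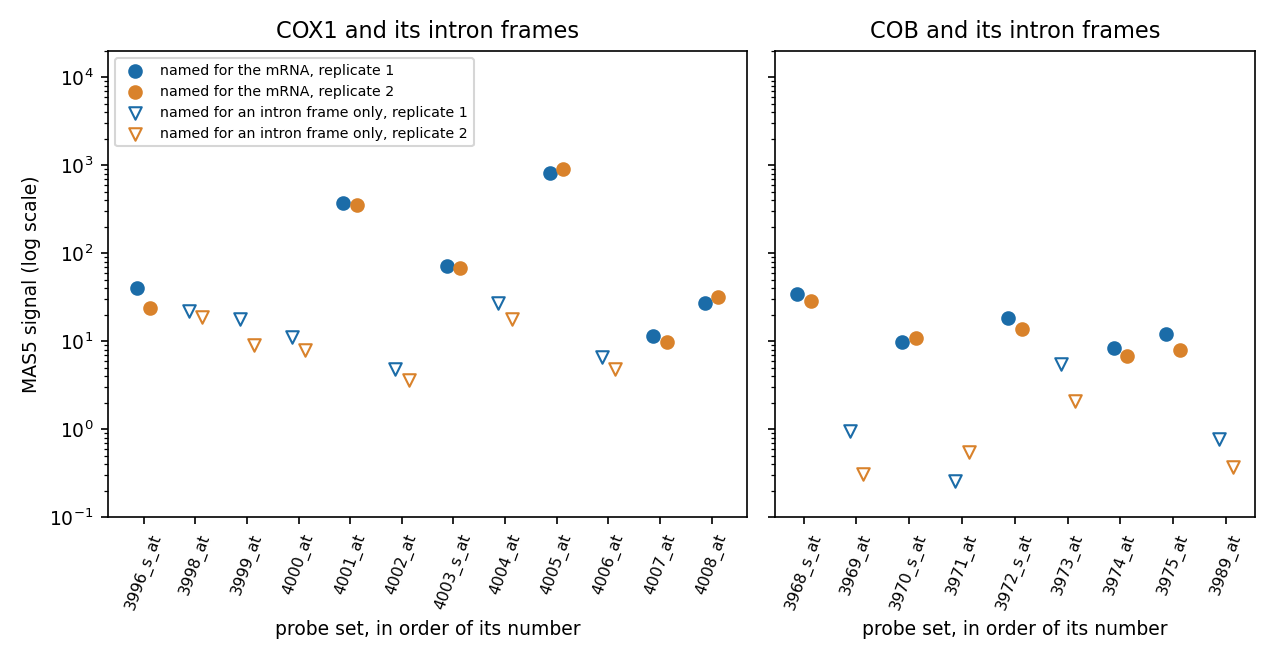
MAS5 signal (log scale) of probe sets named for COX1 (left) or COB (right), alone or with intron frames (filled circles), and of probe sets named for an intron frame only (open triangles), in order of probe set number, for replicate 1 in blue and replicate 2 in orange. The COB circles lie above all COB triangles, most of which are within the range of the opposite-strand controls. The dimmest COX1 circle (11.4 and 9.87) lies among the COX1 triangles.

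The mitochondrial genome also encodes SCEI, the endonuclease in the intron of the large ribosomal RNA, which read 5.75 and 5.31. The unnamed frame Q0255 read 10.8 on both arrays on one probe set, and 1.41 and 1.05, and 0.959 and 0.864, on the others. Over all 14 probe sets of intron and other frames the median signal was 4.91 ± 0.966. Every one lay below the median single-gene probe set on both arrays, where 3130 of all 6504 single-gene probe sets did. The median percentile was 13.1 for the 14 probe sets of the protein genes and 7.16 for these 14.

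The nuclear genes of the same complexes were placed on the array in the same way. The 14 mitochondrial probe sets had a median percentile of 13.1, or 19.2 over the 10 plain ones, and the 34 nuclear probe sets are all plain. The nuclear genes had medians of 91.9 for complex IV (9 probe sets), 91.9 for complex III (10) and 92.5 for ATP synthase (15). Of these 34 nuclear probe sets, 2 lay below the median single-gene probe set on both arrays, where 3130 of all 6504 single-gene probe sets did. One was COX5B, at 35.6 and 33.9, which encodes the low-oxygen form of a complex IV subunit. The other was 1 of the 2 QCR8 probe sets, at 29.3 and 26.2. The bright COX1 and OLI1 probe sets, at percentiles 98.2 and 97.9, lay above the highest of the 34, COX12 at 97.1. With the primer not given and mitochondrial mRNAs lacking a poly(A) tail, these ranks are not read as RNA levels against nuclear genes.

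In complex IV the brightest nuclear probe sets were COX12, at 697 and 651, and COX8, at 511 and 488, and after COX5B the dimmest was COX9, at 203 and 193. In complex III the brightest were QCR7, at 577 and 614, and the second QCR8 probe set, at 463 and 504, and after the dim QCR8 probe set came QCR10, at 172 and 159. In ATP synthase ATP1, of the catalytic head, read 548 and 518 and ATP3, of its rotor stalk, 519 and 509. The dimmest there were ATP20, at 99.5 and 86.6, and 1 of the 2 ATP14 probe sets, at 101 and 77.4. QCR8 and ATP14 show that disagreeing probe sets also occurred among the nuclear partners.

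VAR1 was set beside 33 genes listed for the small mitochondrial ribosomal subunit, whose median percentile was 63.2. The list includes YMR31, now named KGD4 and known as a subunit of a dehydrogenase of the citric acid cycle. MRP2, at 138 and 144, and RSM18, at 136 and 137, were the brightest. RSM25, at 10.1 and 9.44, and MRP21, at 12.7 and 11.4, were the dimmest. All 33 lay above the opposite-strand controls on both arrays, where 4.6% of all single-gene probe sets lay at or below them on both. Neither VAR1 probe set lay above them on either array. The VAR1 probe sets carry the suffixes i and r, whereas those of the 33 genes are plain.

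**Figure D3:**
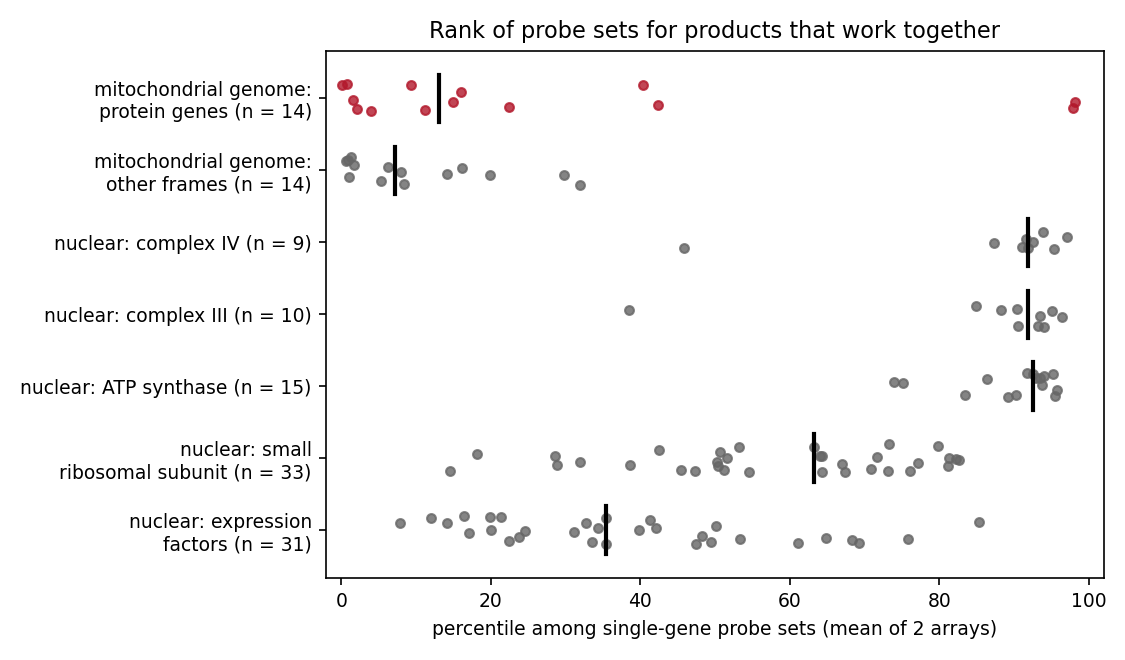
Percentile of each probe set among single-gene probe sets (mean of the 2 arrays) for the mitochondrial protein genes (red), the other mitochondrial frames, the nuclear subunits by complex and the nuclear expression factors (grey), with vertical bars at the medians. The mitochondrial protein genes have a median of 13.1, with 2 points near 98, while the nuclear subunits of complexes III and IV and of ATP synthase gather around 92. These ranks are not read as RNA levels of mitochondrial against nuclear genes.

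Nuclear factors that make or translate the mitochondrial mRNAs lay between these groups, with a median signal of 25.7 ± 0.782 and a median percentile of 35.4 over 31 genes. RPO41, the mitochondrial RNA polymerase, read 56.1 and 54.8, and its specificity factor MTF1 read 30.8 and 29.3. SUV3 and DSS1, the helicase and nuclease of the mitochondrial RNA-degrading complex, read 24.3 and 26.2, and 12.7 and 17.6. PET127, which acts in processing the 5′ ends of mitochondrial RNAs, read 40.8 and 46.2.

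For COX1, the translation and assembly factor MSS51 read 184 and 158 and was the brightest factor of the list, while the translational activator PET309 read 15.7 and 11.4. The splicing helicase MSS116 read 94.2 and 97.1, and the splicing factors MRS1, MSS18 and MNE1 read 38.4 and 38.9, 15.6 and 17.8, and 10.7 and 8.39. For COX2, the activator PET111 read 32.2 and 29.8. For COX3, the activators PET54, PET494 and PET122 read 79.3 and 68.0, 16.3 and 15.98, and 12.98 and 13.6. MRS1, MSS116 and PET54 also have roles in splicing beyond the gene they are listed for.

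For COB, the assembly and translation factors CBP3 and CBP6 read 63.3 and 62.8, and 30.1 and 27.7. The mRNA stability factor CBP1 read 37.6 and 36.7, the splicing factor CBP2 13.999 and 8.21, and the activators CBS1 and CBS2 11.4 and 11.4, and 14.8 and 14.2. NAM2, the leucyl-tRNA synthetase that also acts in splicing, read 25.1 and 22.3.

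For ATP6 and ATP8, NCA3 read 69.7 and 72.3, the ATP6 activator ATP22 41.0 and 37.6, NCA2 24.1 and 26.4, NAM1 (now MTF2) 24.4 and 24.3 and AEP3 9.40 and 6.85. For OLI1, AEP1, ATP25 and AEP2 read 35.1 and 37.8, 25.4 and 20.4, and 21.2 and 22.0. For VAR1, the factor SOV1 read 3.96 and 6.66, the dimmest of the 31 (percentile 7.90). Like most single-gene probe sets, all 31 factors lay above the opposite-strand controls on both arrays. Across the list, factors of bright and dim mitochondrial probe sets were not tested against each other.

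The replicates agreed closely on the 2 bright members, and their agreement on the dim ones varied. The log2 ratio of replicate 1 to replicate 2 was -0.12 for COX1 4005_at and 0.16 for OLI1 3976_at. Among the dim ones it ran from -1.95 for OLI1 3993_at to 1.02 for COX3 3988_at. It was 0.05 for VAR1 3980_r_at, which read a single step of the scale on each array. Of the 14 member probe sets, 2 differed by at least 2-fold, where 2.03% of all single-gene probe sets above 0 did, and 6.4% of those under the 25th percentile on both arrays. They were COX3 3988_at, with a log2 ratio of 1.02, and OLI1 3993_at, whose readings of 0.192 and 0.741 both lie within the opposite-strand controls. COX3 was just past this fold, at 1.01 when centred on the poly-A controls and from 0.49 to 0.99 under the 5 other scalings and pseudocounts tried. No p-value is given for differences between 1 array and another, which have no replicates of their own.

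Most mitochondrial probe sets read higher on replicate 1. This held for 11 of the 14 member probe sets (10 after quantile normalisation or loess), with a median log2 ratio of 0.31, where 58.8% of all single-gene probe sets, with a median of 0.03, and 61% of those under the 25th percentile did. The 3 that read higher on replicate 2 were COX1 4005_at and 4008_at and OLI1 3993_at. Among the 14 intron and other frames 13 read higher on replicate 1, with a median log2 ratio of 0.44 and BI3 as the exception. Over both groups this makes 24 of 28, and 14 of the 16 that lay above the opposite-strand controls on both arrays. Many of these frames share transcripts, so the probe sets are not independent.

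COX2 had a log2 ratio of 0.52, the COB probe sets 0.30 and 0.59, ATP6 0.31, COX1 4007_at 0.21 and COX1 4008_at -0.21. Among the nuclear partners 50 of 67 probe sets read higher on replicate 1, with a median log2 ratio of 0.07, and the difference from the mitochondrial share was not tested. The mitochondrial probe sets carry numbers from 3956 to 4008, with unnamed probe sets among them. Nuclear probe sets within 100 of these numbers, a comparison chosen after the values were seen, read higher on replicate 1 in 57 of 101 cases, with a median log2 ratio of 0.06. Of those among them under the 25th percentile on both arrays, 22 of 34 did. The 15 Bacillus poly-A controls had a mean log2 ratio of 0.0094 (SD 0.053).

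**Figure D4:**
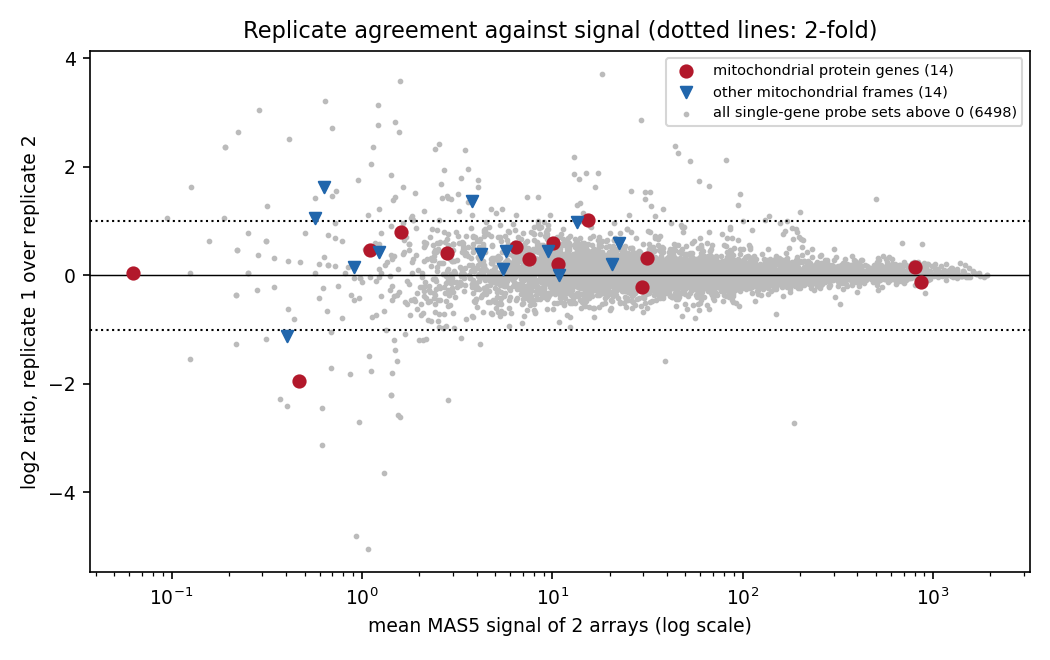
Log2 ratio of replicate 1 to replicate 2 against mean MAS5 signal (log scale) for the 14 probe sets of mitochondrial protein genes (red circles), the 14 of other mitochondrial frames (blue triangles) and all 6498 single-gene probe sets above 0 on both arrays (grey), with dotted lines at 2-fold. Of the 28 mitochondrial points, 24 lie above the line of equal signal, and the bright COX1 and OLI1 points lie close to it.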

How the data were processed

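Total RNA (about 20 ug) of 2 replicates, taken at an optical density of 0.5 to 0.7, was made into biotin-labelled cRNA. Each went on 1 Affymetrix array, per the labels' protocols. The deposited intensity values are linear signals, for which the submitters' processing notes name MAS5. The sources used here do not give its version or scaling target. Per the deposited values, each array's intensities were whole multiples of a step (0.0639 and 0.0617, within 0.02 steps), so 1 factor per array had been applied.

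Names came from GEO's platform annotation, with symbols brought up to date through the gene identifiers in the R64 table of RefSeq. Of 9335 probe sets, 6504 had 1 gene, 328 several, 60 were controls and 2443 are unnamed here. No build is given, so no coordinates or sequences are printed. Members and lists (65 nuclear partners, 31 expression factors) were chosen with earlier results of these data known. All member probe sets and factors were named, with the 2 brightest and 2 dimmest probe sets per complex. No p-values were computed, because the arrays form 1 group. Genes of like pattern were not sought over 2 arrays. Alternatives were other scalings, pseudocounts, filters, ceilings and probe set rules, and leaving out a replicate. Python 3.11.15, numpy 2.4.6, pandas 2.3.3, statsmodels 0.14.6 and matplotlib 3.10.9 were used.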

Additional observations from a re-analysis of the deposited data

How the results depend on the processing

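The median signal of the 14 member probe sets, 8.63, was 13.2 over plain probe sets only and 12.7 with the brightest probe set per gene, and 7.37 and 9.88 on a single array. That of the nuclear partner genes, 126, was 131 with the brightest probe set per gene, and 125 and 128 on a single array. That of the expression factors, 25.7, was 25.1 and 26.2 on a single array. The 5 member probe sets at or below the opposite-strand controls became 2 against the mouse controls (OLI1 3993_at and VAR1 3980_r_at) and 9 against the 25th percentile, and were 5 on each array alone. Against the mouse controls the call, which asks for both arrays, thus ended for ATP8 and VAR1 3979_i_at. On replicate 2, though, ATP8 3956_i_at (0.926) and VAR1 3979_i_at (1.17) stayed below the highest mouse control, 1.30. The 2 member probe sets past 2-fold became 1 after quantile normalisation, centring on the median or loess, 0 with a pseudocount of 1 or of 16, and 4 at 1.5-fold, and stayed at 2 when centred on the poly-A controls. The COX3 log2 ratio was 0.98 after quantile normalisation, just under 2-fold. Member percentiles moved by at most 3.30 points with plain probe sets as the background and 2.03 points with those above the mouse controls. The log2 ratios of 13 member probe sets kept their sign in all 6 alternatives. The exception was VAR1 3980_r_at, at 0 and -0.06 after quantile normalisation and loess. A pseudocount added to both arrays cannot change a sign, so the pseudocounts of 1 and of 16 say nothing about it. The size of the ratios did depend on the pseudocount. With 16 the median log2 ratio of the members was 0.08, against 0.31 without, and OLI1 3993_at went from -1.95 to -0.05. No paired analysis was possible because the arrays form a single group. Signal over background limits ATP8, VAR1 and OLI1 3993_at, whose readings lay within the opposite-strand controls.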

Other observations

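Among the probe set numbers of the mitochondrial genes, from 3956 to 4008, lie 19 probe sets that are unnamed here. Of these, 18 lay below the median single-gene probe set on both arrays, 13 lay at or below the opposite-strand controls on both arrays and 3 read 0 on both. Among the 6504 single-gene probe sets, 3130 lay below that median and 4.6% at or below these controls on both arrays. The shares over all unnamed probe sets were not computed, and the median of all 9335 probe sets was lower, at 28.4 and 27.5. Many of the 19 carry the suffixes i, r or f. The exception to the 18 was 3994_at, which read 343 on replicate 1 and 353 on replicate 2, at percentile 92.9. It is next in number to the OLI1 probe set 3993_at at 0.192 and 0.741. It was chosen after its values were seen, and what it matches was not examined here. The unnamed 3966_i_at, at 34.5 and 28.6, and 3997_at, at 20.6 and 16.6, were the next brightest by the mean of the arrays. On replicate 2 alone 3977_i_at, at 19.7, read higher than 3997_at.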
